A study of Sus scrofa with 6 samples.

Results

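The 60 genes described here are immediate-early response genes, a module of transcription factors, feedback regulators and secreted proteins. They were chosen with measured values in view, those of a single library, later replicate 6, which stood out from later replicates 4 and 5. Rows were taken where the Ensembl identifier of the pig gene is paired with one of the 60 symbols. Of the 60 genes, 39 had a row in the deposited table, which holds 28266 genes in all. The other 21 were not analysed here. They are FOSB, FOSL2, JUN, JUND, MAFK, EGR4, KLF2, KLF5, KLF6, BHLHE40, NR4A1, DUSP2, DUSP5, ZFP36L2, BTG1, BTG2, GADD45A, GADD45G, SIK1, TRIB1 and ARC. For JUND and EGR4 no Ensembl identifier was paired with the symbol. The Ensembl numbers in the table end at 31070, and the other 19 genes carry numbers from 31321 upward.

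Immediate-early genes are transcribed soon after a cell meets serum, a growth factor, mechanical strain or stress, without the need for newly made protein. MAP kinases and calcium or cAMP signals act on factors already bound at these genes, such as SRF with its ELK partners, and CREB. Their transcripts are short-lived, and many of the products shut the response down again. In muscle stem cells the same genes are known to come on during isolation from tissue and on entry into the cell cycle.

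RNA-seq was analysed for 6 libraries of porcine satellite cells (PSCs), the stem cells of skeletal muscle, from Yorkshire pigs. The cells were taken through differentiation in medium with horse serum, renewed daily. One group of 3 libraries, replicates 4, 5 and 6, was labelled 24 h of differentiation. The later group of 3 libraries carries the same replicate numbers and is labelled 48 h, whereas the title of the series and the methods of the study give 36 h. It is called the later group here. The labels name no siRNA. The study's NC siRNA groups are marked with the letter N, which also begins the titles of these libraries. Nothing in the labels says whether replicates came from separate cultures or animals, so p-values measure only the spread between these libraries, which may be technical.

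The extraction note of the labels names endometrium as the source of RNA. Among the markers of epithelium and endometrium, EPCAM, KRT8, PGR and CLDN4 had an FPKM between 0 and 0.037 in every library. Of the 8 markers with a row, 7 stayed under an FPKM of 1. The exception was CDH1, with 0.417, 0.430 and 0.107 at 24 h and 4.363, 4.185 and 2.347 later. With CDH1 the list summed to between 0.438 and 0.884 at 24 h and between 2.84 and 4.75 later. The 16 muscle markers with a row summed to an FPKM of 18770, 17070 and 11570 in 24 h replicates 4, 5 and 6, lowest in replicate 6. In the later group they summed to between 31820 and 36390, so the libraries carried the transcripts of muscle cells. Fibroblast markers summed to between 829.7 and 1035 over all libraries, endothelial markers to between 1.46 and 2.86, immune markers to between 1.78 and 5.73 and adipocyte markers to between 0.164 and 0.557. Between 16338741 and 16863517 fragments lay behind the table in a 24 h library, and 20748006, 21840731 and 17969383 in later replicates 4, 5 and 6. Over all genes, later replicate 6 was close to its group, with a Pearson's r of 0.987 and 0.990 to replicates 4 and 5. At 24 h the least similar library was replicate 6, with 0.972 and 0.981.

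Values are FPKM, fragment numbers corrected for transcript length and sequencing depth, so levels can be compared between genes. The gap of later replicate 6 is its log2(FPKM + 1) minus the mean of later replicates 4 and 5. Of the 39 genes, 35 averaged an FPKM of 1 or more across the 6 libraries and entered the comparisons. In 18 of the 35 the gap was at least 1, against 0.669% of the 14060 genes tested. In 25 of the 35, later replicate 6 was the highest of all 6 libraries, against 12.6% of all genes. The median gap was 1.04 in these genes and 0.01 over all genes. Because the genes were picked on this library, these counts describe the choice and carry no test.

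**Figure D1:**
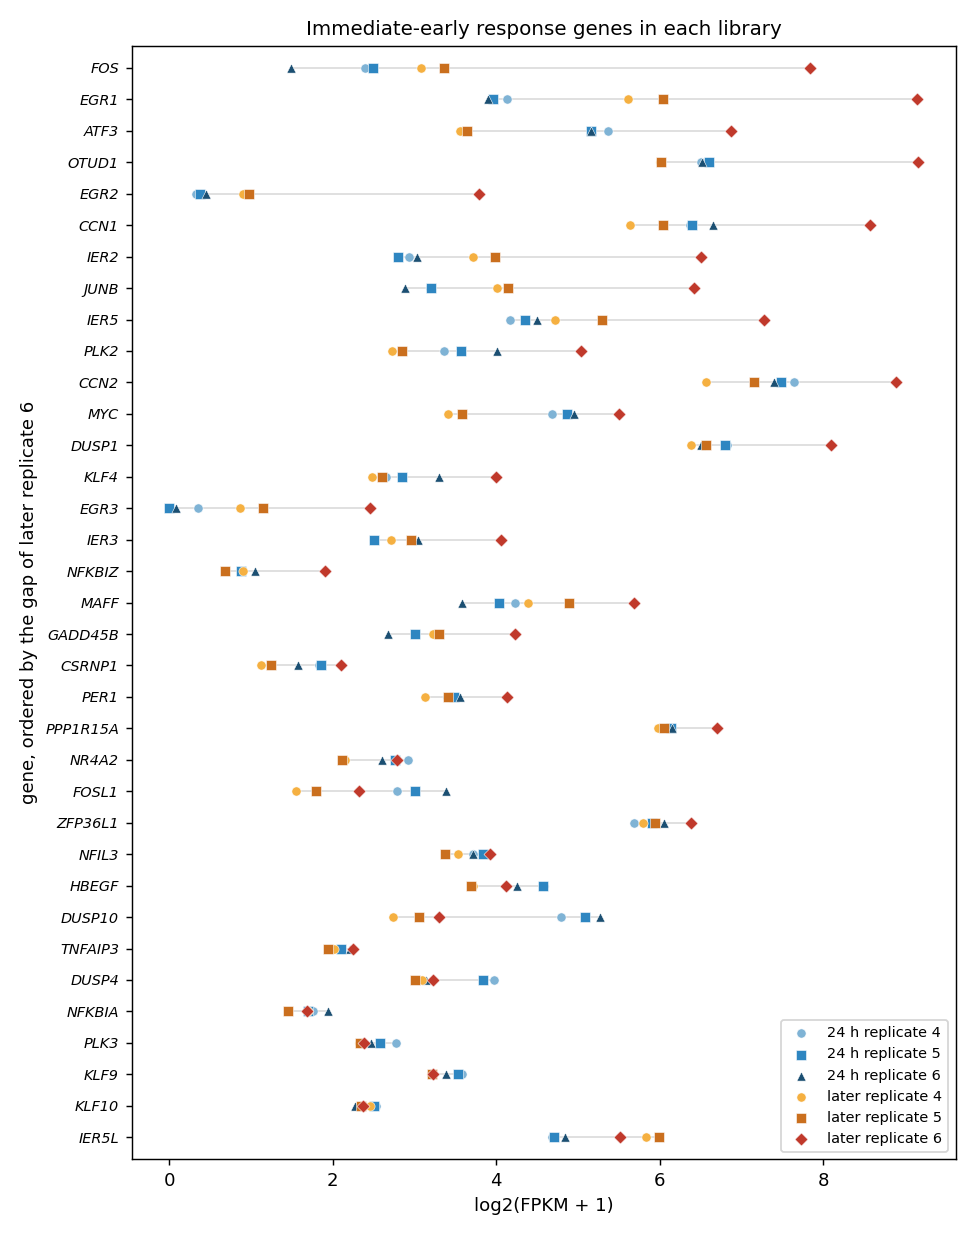
Level of each of the 35 tested genes in each library as log2(FPKM + 1), with the genes ordered from the largest gap of later replicate 6 at the top to the smallest at the bottom. Blue symbols are the 24 h libraries, orange symbols later replicates 4 and 5, and the red diamond later replicate 6, which lies to the right of all others from FOS down to PPP1R15A and behind its group mates in IER5L.

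The AP-1 subunits, leucine zipper factors that bind DNA as dimers, held the largest gap. FOS, on chromosome 7 of Sscrofa11.1 from 98449508 to 98451971 in the RefSeq annotation, had an FPKM of 4.25, 4.64 and 1.81 in the 24 h replicates 4, 5 and 6, of 7.47 and 9.27 in later replicates 4 and 5, and of 228 in later replicate 6. Later replicate 6 was 27.3-fold over the mean of replicates 4 and 5, from 8817 fragments against 333 and 435, and no other tested gene had a gap as large as its 4.62. JUNB, a JUN family partner of FOS, had 8.14, 8.21 and 6.36 at 24 h, 15.1 and 16.7 in later replicates 4 and 5, and 84.7 in replicate 6, which was 5.33-fold higher. In both genes the 24 h libraries were lowest, later replicates 4 and 5 stood above them, and replicate 6 stood far above those.

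ATF3, a stress-induced bZIP repressor, followed another order. It had 40.4, 34.9 and 34.9 at 24 h, fell to 10.8 and 11.5 in later replicates 4 and 5, and stood at 116 in replicate 6, a gap of 3.27. Here replicates 4 and 5 were the lowest libraries and replicate 6 the highest, with the 24 h group between them. MAFF, a small MAF protein without a transactivation domain, had 17.8, 15.4 and 10.9 at 24 h and 19.95, 28.8 and 50.4 later, so that its gap was 1.04. FOSL1, which encodes FRA1, was the AP-1 gene with the smallest gap, 0.65. Its values were 5.91, 7.07 and 9.43 at 24 h and 1.92, 2.47 and 3.997 later, and later replicate 6 stayed under every 24 h library.

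The EGR genes, zinc finger factors induced through SRF, shared the order of FOS. EGR1, on chromosome 2 from 140440829 to 140445302, had 16.6, 14.6 and 13.9 at 24 h, 47.8 and 64.6 in later replicates 4 and 5, and 569 in replicate 6, a gap of 3.33 and a ratio of 10.1. EGR2 had 0.253, 0.304 and 0.368 at 24 h, 0.873 and 0.976 in later replicates 4 and 5, and 12.9 in replicate 6, where 652 fragments lay behind the value against 51 and 60. EGR3 rested on 5, 0 and 1 fragments at 24 h and on 18, 28 and 85 in the later group, an FPKM of 0.824, 1.22 and 4.49. Among these 3 genes EGR1 was by far the most abundant in every library. In each of them the groups did not overlap, which held for 63.6% of all genes. EGR2 and EGR3 reached the FPKM minimum only through later replicate 6.

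The IER proteins are small early response products, of which IER2 and IER5 act in the nucleus. IER2 had 6.66, 5.96 and 7.21 at 24 h, 12.2 and 14.8 in later replicates 4 and 5, and 90.2 in replicate 6. IER5, with 17.0, 19.5 and 21.6 at 24 h, had 25.3 and 38.3 in later replicates 4 and 5 and 154 in replicate 6. Both followed the order of FOS, with gaps of 2.66 and 2.27. IER3, which acts in cell survival, had 4.68, 4.68 and 7.26 at 24 h and 5.55, 6.78 and 15.6 later, where replicates 4 and 5 lay within the range of the 24 h group. IER5L, a relative of IER5, was the one gene of the module that was clearly lower in later replicate 6 than in its group mates. Its values were 24.7, 25.1 and 27.8 at 24 h and 55.9, 62.5 and 44.9 later, a gap of -0.39.

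Several other genes shared the order of ATF3, with later replicates 4 and 5 lowest and replicate 6 highest. OTUD1, a deubiquitinase on chromosome 10 from 51618442 to 51621309, had 89.6, 96.7 and 91.0 at 24 h, 63.2 and 63.5 in later replicates 4 and 5, and 572 in replicate 6, which was 9.02-fold over the mean of the former. CCN1, a matricellular protein that binds integrins, had 82.0, 83.4 and 99.3 at 24 h, 48.8 and 64.8 in later replicates 4 and 5, and 381 in replicate 6. Its relative CCN2 (CTGF) had 199, 178 and 168 at 24 h, 93.7 and 142 in later replicates 4 and 5, and 474 in replicate 6. Per kilobase, CCN2 was the highest gene of the module in each of the 24 h libraries and in later replicates 4 and 5, while in replicate 6 OTUD1 and EGR1 stood above it.

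PLK2, a polo-like kinase induced by serum, had 9.27, 10.9 and 15.2 at 24 h, 5.62 and 6.18 in later replicates 4 and 5, and 31.8 in replicate 6. MYC, which drives growth and is kept low in differentiating muscle cells, had 24.7, 28.3 and 29.9 at 24 h, 9.62 and 10.99 in later replicates 4 and 5, and 44.4 in replicate 6, so its gap was 2.01. KLF4, a Krüppel-like factor, had 5.28, 6.18 and 8.90 at 24 h, 4.57 and 5.09 in later replicates 4 and 5, and 14.9 in replicate 6. All 3 genes were lowest in later replicates 4 and 5. DUSP1, the phosphatase that turns off p38, JNK and ERK, had 112, 110.1 and 89.8 at 24 h, 82.7 and 93.8 in later replicates 4 and 5, and 273 in replicate 6, where replicate 4 lay just under the 24 h range, replicate 5 inside it and replicate 6 far above it. NFKBIZ, an inhibitor-like regulator of NF-κB target genes, was at 0.854, 0.832 and 1.07 at 24 h and at 0.868, 0.605 and 2.76 later.

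**Figure D2:**
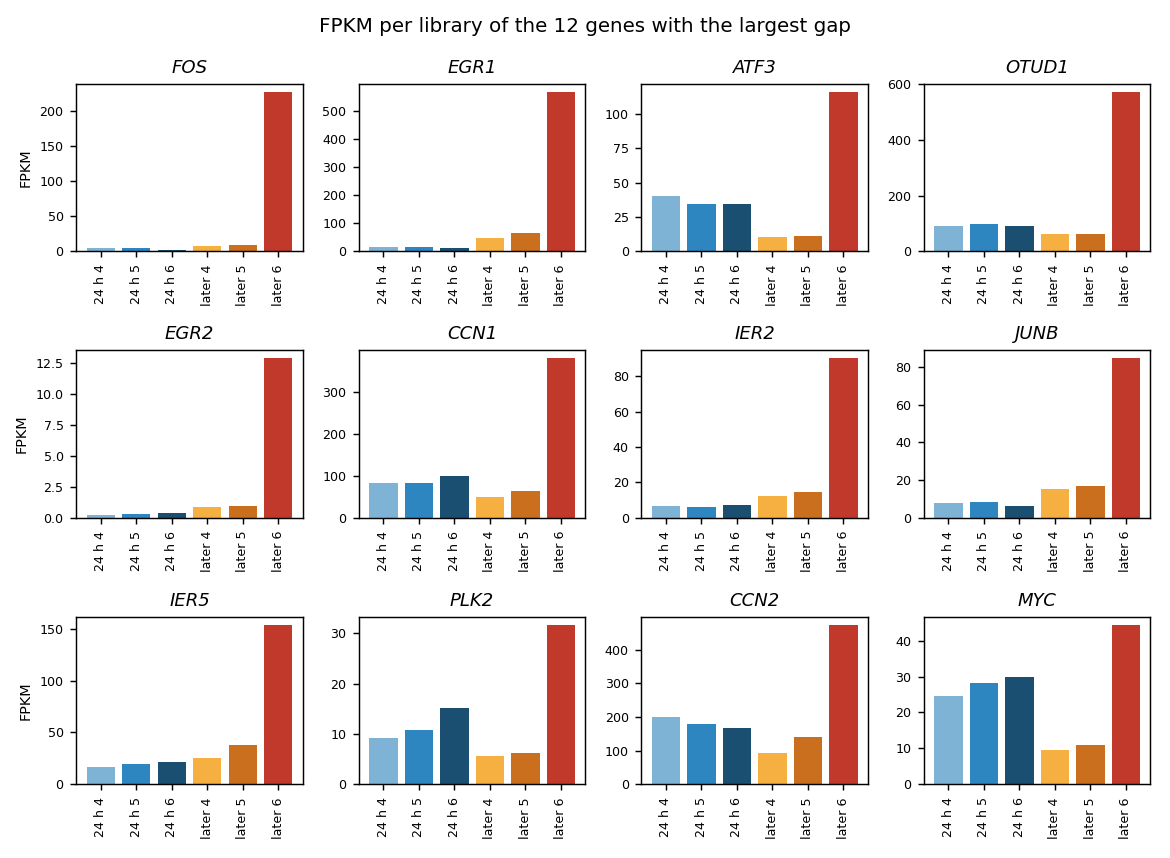
FPKM of the 12 genes with the largest gap of later replicate 6, 1 bar per library and a linear axis from 0 in each panel (blue bars 24 h replicates 4, 5 and 6, orange bars later replicates 4 and 5, red bar later replicate 6). The red bar is the highest in every panel, and the orange bars lie above the blue ones in FOS, EGR1, EGR2, IER2, JUNB and IER5 and below them in ATF3, OTUD1, CCN1, PLK2, CCN2 and MYC.

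Part of the module shared the gap only weakly. In 7 of the 17 tested genes with a gap under 1 it lay at 0.5 or above, as in GADD45B (0.97), CSRNP1 (0.92), PER1 (0.86), PPP1R15A (0.68), NR4A2 (0.65) and ZFP36L1 (0.51), beside FOSL1. These encode a stress sensor that activates p38 upstream kinases, a nuclear factor, a clock repressor, a regulatory subunit of the phosphatase of eIF2α, an orphan nuclear receptor and an mRNA decay factor. PPP1R15A illustrates the size, with 66.9, 69.7 and 70.2 at 24 h, 62.3 and 65.5 in later replicates 4 and 5, and 103 in replicate 6. In the other 10 genes the gap was under 0.5. Among them were the phosphatases DUSP10 (0.41) and DUSP4 (0.18), the EGF receptor ligand HBEGF (0.41), and the NF-κB inhibitors TNFAIP3 (0.27) and NFKBIA (0.12). KLF9 and KLF10 had gaps of 0.02 and -0.03, and PLK3 one of 0.06, so the families were split, with KLF4 and PLK2 far above their relatives.

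The design compares the later group with 24 h, and the outcome for these genes depended on later replicate 6. All genes past this minimum were fitted with limma on log2(FPKM + 1) and adjusted by Benjamini-Hochberg. With all 6 libraries, 9 of the 35 genes had an adjusted p under 0.05, 5 higher and 4 lower in the later group, where 50.9% of all genes were called, 16.5% higher and 34.4% lower. Without later replicate 6, 18 of the 32 genes that still reached the FPKM minimum were called, 6 higher and 12 lower, where 42.8% of all genes were called, 14.0% higher and 28.8% lower. Of these genes 6 were called in both fits. The groups did not overlap in 14 of the 35 genes with all libraries (63.6% of all genes) and in 25 of the 32 without replicate 6 (70.6% of all genes). The genes were picked with replicate 6 set beside replicates 4 and 5, so neither fit is independent of the choice. The fit of all 6 libraries contains the very values of replicate 6 on which the genes were picked.

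The genes higher in the later group without replicate 6 were EGR1, IER5L, FOS, JUNB, IER2 and IER5. EGR1 rose by 1.83 on the log2 scale (standard error 0.15, limma adjusted p = 0.00287), from a mean FPKM of 15.0 at 24 h to 56.2 in replicates 4 and 5. With replicate 6 its change was 2.94, the standard error rose to 0.86 and the adjusted p to 0.0278, and the call was lost without any one of the 24 h libraries (0.0518 to 0.0715). FOS rose by 1.09 without replicate 6 (standard error 0.32, limma adjusted p = 0.0410), whereas with it the change was 2.63 and the adjusted p 0.110. The larger mean change thus came with a spread that removed the call.

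JUNB rose by 0.99 (standard error 0.13, limma adjusted p = 0.00559) without replicate 6. With it the change was 1.77 at an adjusted p of 0.0477, which was lost without any one of the 24 h libraries or later replicate 5 (0.0543 to 0.0973). IER2 and IER5 rose by 0.93 and 0.66 without replicate 6 (limma adjusted p = 0.00567 and 0.0391) and were not called with it (0.0638 and 0.0881), though both were without later replicate 4 (0.0453 and 0.0388). IER5L was called in either fit, with a change of 1.03 with replicate 6 (standard error 0.12, limma adjusted p = 0.00148) and 1.16 without it. Of these fits MAFF was called in the one with all libraries (change 1.04, limma adjusted p = 0.0358). Without replicate 6 its change was 0.70 at an adjusted p of 0.0618, and the call was also lost without 24 h replicate 5, 24 h replicate 6 or later replicate 5 (0.0761 to 0.0818).

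The largest fall was that of DUSP10, a phosphatase of JNK and p38. It had 26.8, 33.1 and 37.5 at 24 h and 5.66, 7.34 and 8.87 later, a change of -2.02 with all libraries (standard error 0.17, limma adjusted p = 0.000752) and of -2.15 without replicate 6. FOSL1 fell in either fit as well, by 1.17 with all libraries (limma adjusted p = 0.00674) and by 1.39 without replicate 6. HBEGF had 23.1, 22.8 and 18.1 at 24 h and 12.1, 11.97 and 16.4 later, and fell by 0.63 and 0.77 (limma adjusted p = 0.0119 and 0.00826). In these genes replicate 6 lay on the same side of the 24 h group as its group mates. KLF9 had values between 9.46 and 11.01 at 24 h and between 8.19 and 8.37 later, a change of -0.28 (limma adjusted p = 0.0219), and without replicate 6 the change was -0.29 and the call was lost at 0.0522. It was also lost without 24 h replicate 4 or 5 or later replicate 4 or 5 (0.0637 to 0.0743).

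The other falls were called only when later replicate 6 was left out. ATF3 fell by 1.63 (standard error 0.09, limma adjusted p = 0.00266) and MYC by 1.34 (standard error 0.11, limma adjusted p = 0.00287). With replicate 6 their changes were -0.54 and -0.67 at an adjusted p of 0.615 and 0.316. PLK2 and OTUD1 fell by 0.86 and 0.54 (limma adjusted p = 0.0205 and 0.00506), NR4A2 by 0.63 (0.0137), CCN1 by 0.64 (0.0215), CCN2 by 0.65 (0.0379), CSRNP1 by 0.57 (0.0282) and NFIL3, a bZIP repressor, by 0.30 (0.0454). For OTUD1, CCN1 and CCN2 the sign turned with the library, since the change with all libraries was 0.51, 0.28 and 0.03. Among the 15 genes with a gap of at least 1 that could be tested without replicate 6, 5 were called higher and 6 lower than at 24 h in the remaining later libraries (14.0% and 28.8% of all genes). The other 4 were not called, with changes of 0.15 in IER3, 0.70 in MAFF, -0.23 in DUSP1 and -0.39 in KLF4. These 15 genes were selected on the gap, so the counts carry no test.

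**Figure D3:**
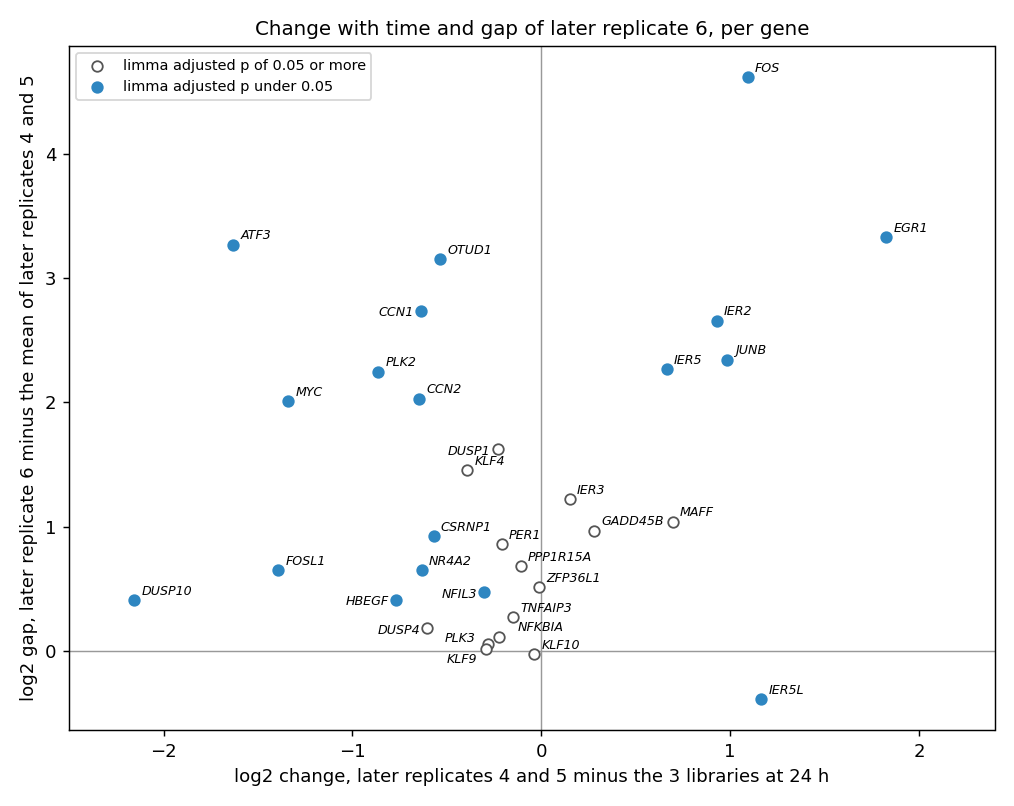
For each of the 32 genes tested without later replicate 6, the log2 change from 24 h to later replicates 4 and 5 (horizontal) against the gap of later replicate 6 (vertical), filled where the limma adjusted p of the change was under 0.05. Both axes contain later replicates 4 and 5, so no correlation is drawn, and genes with a gap above 2 lie on either side of 0, EGR1, FOS, IER2, JUNB and IER5 to the right and ATF3, MYC, PLK2, CCN2, CCN1 and OTUD1 to the left.

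The median change of all genes was -0.16 in either fit, and the median of the module was 0.09 with all libraries and -0.26 without replicate 6. With median-ratio scaling of the libraries and replicate 6 left out, 15 of 32 genes were called, 7 higher and 8 lower, 14 of them among the 18 above. Of all genes 37.8% were called there, 19.9% higher and 17.9% lower. CCN1, CCN2, CSRNP1 and NFIL3 were not called there (limma adjusted p = 0.0533, 0.119, 0.0628 and 0.283), and MAFF was called higher (0.0483). With 24 h replicate 6 also left out, which leaves 2 libraries per group, 23 of 32 genes were called, 7 higher and 16 lower, including all 18. Of all genes 52.9% were called there, 18.2% higher and 34.7% lower.

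The remaining tested genes showed no call with all libraries or without later replicate 6 alone, among them DUSP1, KLF4, IER3, GADD45B, PER1, PPP1R15A, ZFP36L1, TNFAIP3, NFKBIA, PLK3, KLF10 and DUSP4. DUSP4 had 14.8, 13.4 and 7.81 at 24 h and 7.56, 7.03 and 8.40 later, where 24 h replicate 6 lay apart from replicates 4 and 5 of its group (change -0.54, limma adjusted p = 0.0737). Without both replicates 6, DUSP4 fell by 0.86, DUSP1 by 0.33 and PLK3 by 0.35 (limma adjusted p = 0.000901, 0.0127 and 0.0337). EGR2, EGR3 and NFKBIZ reached the FPKM minimum only through later replicate 6. EGR3 was called with all libraries (change 1.34, limma adjusted p = 0.0298). A gene that passes the minimum through the group in which it is high is picked partly for that difference. The call of EGR3 therefore carries no weight, and it was lost without 24 h replicate 5 or 6 or later replicate 5 (0.0526 to 0.0833). EGR2 and NFKBIZ were not called (0.129 and 0.571). SGK1, NR4A3, CXCL2 and ZFP36 stayed under a mean FPKM of 1 and were not tested. SGK1, a serum-induced kinase, had 0.933, 0.760 and 1.59 at 24 h and 0.599, 0.493 and 1.45 later. NR4A3 lay between 0.796 and 1.17, CXCL2 between 0.112 and 0.380, and ZFP36 had at most 1 fragment in any library.

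Each library was also set against the mean of the other libraries of its group. Over the 35 genes the median difference was -0.06, 0.0031 and -0.03 for 24 h replicates 4, 5 and 6, and -0.64 and -0.42 for later replicates 4 and 5, whose reference contains replicate 6. Not one of the 35 genes lay at least 1 above its group mates in any 24 h library, or in later replicate 4 or 5. Over all genes the share was between 0.0782% and 1.44% in these libraries. As the genes were picked on later replicate 6, these values are a description only.

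Genes around the module were read from lists, from which the genes of the module were left out. As the module was picked on later replicate 6, the gaps of these lists are set beside it as a description only. The factors and kinases that act upstream of it had a median gap of -0.03 over the 20 tested, and in none was it at least 1. SRF had an FPKM between 41.5 and 54.5, with 54.5, 52.2 and 54.3 in the later replicates (change 0.26, limma adjusted p = 0.0191). Without replicate 6 its change was 0.25 and it was not called (limma adjusted p = 0.0539). The SRF coactivator MRTFA rose from values between 14.7 and 16.6 to 31.9, 31.9 and 31.1 (change 0.95, limma adjusted p = 0.000662). ELK3, an SRF partner, fell from between 10.5 and 18.3 to 5.88, 5.97 and 5.92 (change -1.02, limma adjusted p = 0.00517). In all, 4 of the 20 were higher and 7 lower in the later group with all libraries (16.5% and 34.4% of all genes). Without replicate 6, 3 were higher and 5 lower (14.0% and 28.8% of all genes). SRF, MRTFA and ELK3 were alike in the later libraries, replicate 6 included. Over the 20 genes the gap was above 0 in 8 and under 0 in 12. The lowest was that of ELK4, with 4.81, 4.47 and 3.10 in later replicates 4, 5 and 6 (-0.46). RPS6KA1 had the highest, with 1.38, 1.35 and 1.87 (0.28).

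Among other genes known from early growth factor responses, 22 were tested, with a median gap of 0.27. The gap was above 0 in 20 of the 22 and under 0 in 2, where 51.3% of all tested genes were above 0. None had a gap of at least 1. ID2, an inhibitor of bHLH factors, came closest with 0.997, from 6.38 and 8.95 in later replicates 4 and 5 to 16.1 in replicate 6. SPRY1, a feedback inhibitor of receptor tyrosine kinases, had a gap of 0.84, and THBS1, a matrix glycoprotein, one of 0.81. Of the 22 genes, 1 was higher and 7 lower in the later group with all libraries (16.5% and 34.4% of all genes). Without replicate 6, 0 were higher and 8 lower (14.0% and 28.8% of all genes). The cytoskeletal targets of SRF and MRTF had a median gap of 0.21 over 9 genes, above 0 in 7 and under 0 in 2. The highest gaps were those of TAGLN (0.46) and ACTB (0.37), and the lowest those of TPM1 (-0.15) and VCL (-0.12). With all libraries 2 of the 9 were higher and 4 lower, in limma as above (16.5% and 34.4% of all genes). The counts were the same without replicate 6 (14.0% and 28.8% of all genes).

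The heat shock and stress list had a median gap of 0.10 over 12 genes, with none at least 1. HSPA8, a constitutive chaperone, had 94.8, 93.9 and 109 in the later replicates, and DNAJB1, which is induced with heat shock, had 38.6, 34.3 and 35.6. Of the 12 genes 8 were lower and 0 higher in the later group, in limma with and without replicate 6. Of all genes 34.4% were lower and 16.5% higher with all libraries, and 28.8% and 14.0% without replicate 6. The muscle markers had a median gap of -0.23 over 16 genes, under 0 in 12 of them and above 0 in 4. The lowest gap was that of TNNC2, a fast troponin C, with 93.6, 62.2 and 25.4 in later replicates 4, 5 and 6 (-1.55). The highest was that of MYF5, a myogenic bHLH factor, with 52.9, 52.6 and 74.2 (0.48). Of these markers 14 were higher in the later group with all libraries (16.5% of all genes) and 12 without replicate 6 (14.0% of all genes). In bulk RNA, fewer cells of a type and less RNA per cell cannot be told apart. The part of these differences in the values of later replicate 6 was not tested.

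**Figure D4:**
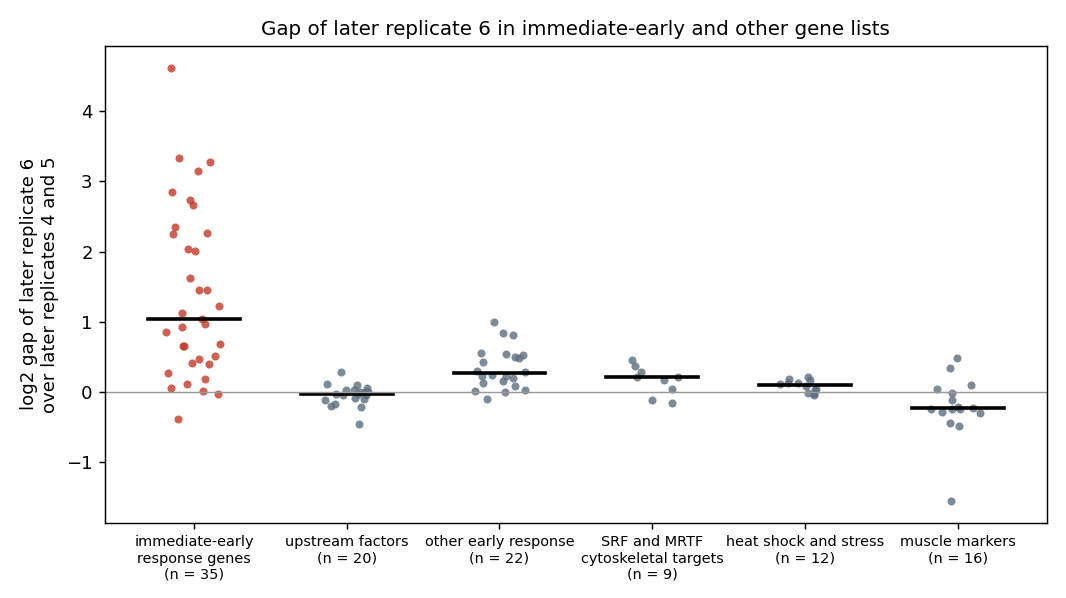
Gap of later replicate 6 over the mean of later replicates 4 and 5 for each tested gene, as a difference of log2(FPKM + 1), in the immediate-early response genes (red) and in other gene lists (grey), with the median as a black bar. The immediate-early genes spread from -0.39 to 4.62 with a median of 1.04, while no gene of the other lists reached 1. In the other early response list the gap was above 0 in 20 of 22 genes and under 0 in 2. The immediate-early genes were picked on later replicate 6 and left out of the other lists, so the contrast carries no test.

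Over all tested genes, 94 had a gap of at least 1 in later replicate 6 and 36 had one of -1 or less. Of the 94, 18 belonged to the module and 76 did not. At a gap of at least 2 there were 19 tested genes, of which 12 belonged to the module. Of the 19, 13 had a symbol, and the others had none. The gene with a symbol outside the module was SNORA31, a small nucleolar RNA. It rested on 8 and 3 fragments in later replicates 4 and 5 and 39 in replicate 6. The 10 largest gaps of genes with a symbol outside the module belonged to SNORA31, SNORD104, SNORD97, SNORD79, SNORD35A, SNORA29, SNORA52, the rows of ssc-let-7d and ssc-let-7f-2, and CITED2. All but CITED2 had at most 39 fragments in any library. CITED2, a transcriptional coregulator that binds CBP and p300, had 145 and 167 in later replicates 4 and 5 and 439 in replicate 6, a gap of 1.49 from 2478, 2999 and 6508 fragments. At 24 h it had 260, 294 and 464, so that replicate 6 did not exceed the range of the 24 h libraries. Of the 76 genes outside the module with a gap of at least 1, 14 had a symbol, the 10 named here among them. The other 62 had no symbol paired with their identifier.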

How the data were processed

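RNA-seq was analysed for 3 libraries at 24 h and 3 later libraries of PSCs. Per the study's methods the authors mapped paired-end reads to Sus scrofa 11.1 with HISAT2, assembled them with StringTie and counted genes with HTSeq. The deposited FPKM values are given for each library apart. The submitters' processing notes name TopHat2, Cufflinks and HTSeq instead. Strandedness and the handling of shared reads are not given in the sources used here.

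Whole fragments were recovered from the steps of each gene's FPKM (100.0% of the 19543 genes above 0 in 3 or more libraries, within 0.02 of a whole number, or within rounding of the deposited digits for large values). A common factor in all libraries would make them too few. Symbols were paired with 11804 of 25322 Ensembl identifiers.

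Genes averaging an FPKM of 1 or more entered a limma 3.58.1 model (R 4.3.3) of log2(FPKM + 1), using moderated two-sided tests with an intensity trend. P-values were adjusted by Benjamini-Hochberg over all genes tested, at a threshold of 0.05. A change on this scale understates that of low genes. The fit was tested on simulated data. Genes are named where the gap of later replicate 6 was at least 1, where a fit called them, or by AP-1 and EGR membership. Others are named to account for every gene. The genes and lists were chosen with earlier results of these data known. The alternatives are given in the closing section.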

Additional observations from a re-analysis of the deposited data

How the results depend on the processing

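The number of immediate-early genes called between the groups (9) stayed within 1.5 times of itself with pseudocounts of 0.1 and 0.01, quantile normalization, limma voom on recovered fragments, median-ratio scaling, eBayes without trend, a stricter FPKM minimum of 5 and none at all, where it was between 7 and 9. Leaving out one library gave between 4 and 18 genes, with 4 without 24 h replicate 5, 5 without later replicate 5 and 18 without later replicate 6. Chosen after seeing the data, leaving out later replicate 6 with median-ratio scaling gave 15, and leaving out both replicates 6 gave 23. Same-numbered libraries deviated together only in part (r across genes 0.146, -0.016 and 0.178 for numbers 4, 5 and 6), and were treated as unpaired; with the replicate block 10 genes were called. The median gap of later replicate 6 (1.04) was 1.31 and 1.35 with pseudocounts of 0.1 and 0.01, 0.99 with quantile normalization, and 1.22 under the minimum of 5. The cause was not tested.

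Signs that turned belonged to genes without a call on all libraries. Leaving out libraries moved ATF3 between -1.67 (without both replicates 6) and 0.027 (without later replicate 4). CCN2 ranged from -0.70 without both replicates 6 to 0.52 without later replicate 4, and was at -0.026 without 24 h replicate 6, -0.65 without later replicate 6 and -0.47 with median-ratio scaling added. CCN1 was at -0.64 and -0.46, and OTUD1 at -0.54 and -0.36, under the last 2 settings, and at -0.55 and -0.55 without both replicates 6, while CCN1 reached 0.83 without later replicate 4. NFIL3 was at 0.019 after median-ratio scaling and at 0.0086 after quantile normalization. PLK2 was at 0.047 and 0.023 under these, at -0.86 without later replicate 6, and at 0.068, 0.29 and 0.23 without 24 h replicate 6, later replicate 4 and later replicate 5. HBEGF lost its call on all libraries with median-ratio scaling (-0.46, limma adjusted p = 0.0508). KLF9 lost its call under that scaling (limma adjusted p = 0.290) and under quantile normalization (0.352), JUNB without a filter, without trend, with the block and with voom (0.0503 to 0.0773), and MAFF without a filter and with the block (0.0591 and 0.0641). IER2 and IER5 gained a call with the block (0.0401 and 0.0457), as did IER3, and IER2 with quantile normalization (0.0487). Results cover 3 libraries per group, and genes of few fragments, such as EGR3, are the least precise.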
